A study of Homo sapiens with 12 samples.

Results

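The insulin-like growth factor (IGF) binding proteins and the genes that regulate them were followed in Huh7 cells after FAM111B knockdown. The 10 genes were chosen by name from the 60666 genes listed for Huh7: IGFBP1 to IGFBP7, the clearing receptor IGF2R, the growth hormone receptor GHR and the stanniocalcin STC1. RNA sequencing was carried out in Huh7 and Hep3B, both established human hepatocellular carcinoma lines, as control and FAM111B knockdown cells, and the 6 libraries of Hep3B are not analysed here. The 3 Huh7 control libraries came from cells with a control sequence, and the 3 shFAM111B libraries from cells with a short hairpin RNA against FAM111B, which encodes a trypsin-like protease. Constructs were delivered by lentivirus and the cells were kept under puromycin, so the comparison rests on 1 cell line and 1 hairpin sequence, and no treatment other than the construct is given. No source used here states whether libraries of 1 group came from separate cultures, so the p-values measure only the spread between these libraries, which may be technical.

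IGFs circulate and act largely bound to IGF binding proteins, which hold the ligand away from its receptor IGF1R, prolong its life and release it when proteases cleave them. The liver is the main source of circulating IGF, and growth hormone, acting through GHR, drives hepatic IGF1 production. IGF2R, also called the cation-independent mannose 6-phosphate receptor, takes up IGF2 for lysosomal breakdown and sorts lysosomal enzymes, and stanniocalcins block the pappalysin proteases that cut IGFBP4 and IGFBP5.

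The sequence targeted by the hairpin is shown first because it marks what was removed. The capitals mark the longest run that it shares with a transcript of IGF2R, 1 of the members with lower values in shFAM111B cells.
shFAM111B target: CTGCCTAGtgattctcatt
The whole 19 bases matched transcripts of 1 gene in GENCODE v29, FAM111B, and the longest run shared with any transcript of a member was 8 bases. The windows from 250 bases before to 50 bases after the start site are printed for IGFBP4, IGFBP6 and IGF2R (RefSeq, GRCh38.p14, plus strand), since on the deposited values IGFBP4 and IGFBP6 were higher and IGF2R was lower in shFAM111B cells and each holds 1 of the searched motifs. The direction of IGF2R was not kept in every scaling, as given below. The capitals mark a TATA box (TATAAA) in IGFBP4 at chr17:40443200-40443499, a forkhead core (GTAAACA) in IGFBP6 at chr12:53097417-53097716, and E-boxes (CACGTG) in IGF2R at chr6:159968832-159969131.
IGFBP4: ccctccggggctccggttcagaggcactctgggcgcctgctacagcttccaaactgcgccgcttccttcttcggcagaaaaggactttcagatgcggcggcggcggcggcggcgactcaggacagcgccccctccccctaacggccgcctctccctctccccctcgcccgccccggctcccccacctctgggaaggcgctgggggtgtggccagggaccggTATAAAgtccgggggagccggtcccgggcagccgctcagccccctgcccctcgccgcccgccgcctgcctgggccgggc
IGFBP6: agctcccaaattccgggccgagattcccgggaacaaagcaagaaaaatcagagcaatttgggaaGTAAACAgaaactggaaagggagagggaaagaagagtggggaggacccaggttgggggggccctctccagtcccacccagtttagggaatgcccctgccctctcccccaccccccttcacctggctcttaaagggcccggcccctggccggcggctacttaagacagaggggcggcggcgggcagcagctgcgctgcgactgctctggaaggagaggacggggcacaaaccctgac
IGF2R: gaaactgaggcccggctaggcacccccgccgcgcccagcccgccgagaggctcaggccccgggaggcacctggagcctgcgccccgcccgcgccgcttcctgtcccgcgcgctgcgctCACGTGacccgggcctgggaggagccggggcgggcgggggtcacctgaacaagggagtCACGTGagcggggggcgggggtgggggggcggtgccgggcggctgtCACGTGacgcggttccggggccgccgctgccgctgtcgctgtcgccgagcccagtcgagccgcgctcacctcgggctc

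These 3 motifs were searched on both strands of all 35116 promoter windows of 300 bases, and the E-box reads the same on both strands. TATAAA was found in 11.53% of windows, GTAAACA in 3.423% and CACGTG in 7.256%, and no site of 1 motif overlapped a site of another in the printed windows. The TATA box of IGFBP4 began at position -29 relative to the start site, the forkhead core of IGFBP6 at -186, and the E-boxes of IGF2R at -132, -74 and -28. At least 3 E-boxes were present in 33 windows (0.09397%). G and C made up 74% of the IGFBP4 window, 61.67% of the IGFBP6 window and 78.67% of the IGF2R window, against a median of 58.67% over all windows. The table held 15 windows for 7 of the 10 members, namely IGFBP2 to IGFBP6, IGF2R and GHR, and apart from the printed sites the only matches among them were TATAAA in 3 windows of GHR.

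The deposited values are TPM (transcripts in each library relative to a fixed total), the abundance per transcript length, so levels of different genes can be set side by side, but a gene's value also depends on all others. They hold no read numbers, so the depth behind each value is unknown. FAM111B was at 7.84, 8.29 and 7.99 TPM in the controls and at 0.96, 1.13 and 0.84 TPM in shFAM111B cells. All 3 shFAM111B libraries lay below all 3 controls, with a log2 fold change of -2.20 ± 0.11 (SE). All log2 fold changes here were taken on log2(TPM + 1), which understates the change of genes with low values, and were tested by the moderated test of limma, adjusted by Benjamini-Hochberg over the 14394 genes that reached 1 TPM in at least 3 libraries. Libraries correlated at 0.969 to 0.984 within a group and at 0.865 to 0.883 between groups over these genes. The median tested gene had a log2 fold change of -0.36, and dividing the TPM of each library by its median-of-ratios factor moved that median to 0.03 and the share of calls that were higher from 29.4% to 50.4%. Members were therefore read on the TPM scale and under 6 other scalings.

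The cells carried the hepatocyte and hepatoma markers of their label: all 12 were detected, with a summed level of 32819 to 33100 TPM in controls and 50070 to 56935 TPM in shFAM111B cells. Of these 12 markers, 5 were higher and 7 lower, among them AFP (log2 fold change 1.66), APOA1 (1.11) and APOA2 (1.00) higher and ALB (-0.63) and APOB (-2.27) lower. Over all tested genes 21.1% were higher and 50.9% lower at an adjusted p under 0.05. Because these are bulk libraries, fewer cells of a type and less RNA per cell cannot be told apart. Some members are typical of stromal or endothelial cells, so markers of other cells were measured too. The 8 matched stellate and fibroblast markers summed to 9.72 to 12.1 TPM in controls and to 15.7 to 21.4 TPM in shFAM111B cells. Of these, 5 stayed under 1 TPM in every library, among them COL3A1 at 0.37 to 0.94 TPM. COL1A1, also under 1 TPM, was at 0.57, 0.68 and 0.76 TPM in controls. In shFAM111B cells COL1A1 was at 0.26, 0.32 and 0.21 TPM, below every control, and it was named after its values had been seen. LUM had a log2 fold change of 1.01 and reached the test only through its shFAM111B libraries. COL1A2 was higher by 0.53 (adjusted p = 0.0288) but lost its call in 4 of the 6 fits that left out 1 library (controls 1 and 3, shFAM111B libraries 1 and 2) and after rescaling to nuclear protein-coding genes. PDGFRB did not pass the test on TPM (0.54, adjusted p = 0.0639) and was higher past the test in 5 of the 6 scalings. DCN, named after its values had been seen, was listed at 0 in all libraries but 1. The 7 endothelial markers summed to 1.27 to 2.76 TPM in controls and 2.15 to 4.03 TPM in shFAM111B cells, most of it from PECAM1, which was at 1.92, 1.26 and 2.28 TPM in controls and at 2.59, 3.49 and 2.12 TPM in shFAM111B cells. The PECAM1 groups overlapped (log2 fold change 0.41, adjusted p = 0.109), and it was higher past the test in 5 of the 6 scalings. STAB2 reached 0.54 TPM, VWF and CDH5 stayed under 1 TPM, and KDR and CLEC4G, named after their values had been seen, were listed at 0 throughout. The 6 blood and immune markers summed to 19.1 to 21.9 TPM and 23.8 to 26.1 TPM, respectively, mostly from CD68, a lysosomal protein of macrophages that other cells also make. CD68 was at 16.3 ± 1.30 TPM in controls and 22.6 ± 0.755 TPM in shFAM111B cells (SD, n = 3), a log2 fold change of 0.45 (adjusted p = 0.0016) that passed the test in all 6 scalings. CD14 was at 3.73 ± 0.350 and 2.53 ± 0.884 TPM (-0.45, adjusted p = 0.0681), PTPRC was at 2.39 TPM in the third control and at most 0.13 TPM elsewhere, and CD3E stayed under 1 TPM. The paper describes RNA taken from hepatocellular carcinoma cells, with the identity of the lines checked by genotyping, and no added cells of other types. The marker values are thus levels in cultures of a cell line and do not show that other cells were present. Their source was not tested.

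Of the 7 members that reached the test, IGFBP2, IGFBP4, IGFBP6 and IGFBP7 were higher in shFAM111B cells, IGF2R and GHR were lower, and IGFBP3 did not pass the test. Among all tested genes, 72% passed at an adjusted p under 0.05, 21.1% higher and 50.9% lower. The 4 higher members were the same 4 whose shFAM111B libraries all lay above the controls, which held for 22.5% of tested genes, and IGF2R and GHR lay wholly below, as did 52.8%. In all, 6 of the 7 had groups that did not overlap, against 75.2% of tested genes. At a change of at least 2-fold with P under 0.05, IGFBP2, IGFBP4 and IGFBP6 passed upwards and 0 of the 7 downwards, against 6.82% and 23.7% of tested genes. With 0.1 instead of 1 added to the TPM, GHR (log2 fold change -1.25) passed downwards and IGFBP7 (1.08) upwards as well. By that rule 1267 of the 14394 tested genes were then higher and 4264 lower. IGFBP2 reached the test only through its shFAM111B libraries and GHR only with its control libraries, the groups in which each is high, and IGFBP1, IGFBP5 and STC1 stayed under 1 TPM in all 6 libraries and were not tested.

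By level, IGF2R was the highest of the members in both groups, at 50.3 ± 1.16 TPM in controls and 39.2 ± 4.07 TPM in shFAM111B cells (mean ± SD, n = 3). In controls it was followed by IGFBP3, IGFBP4, IGFBP7, IGFBP6, GHR, IGFBP2 and IGFBP1. The libraries of neighbouring genes overlapped from IGFBP4 down to GHR, so that stretch of the order is not resolved. In shFAM111B cells the order was IGF2R, IGFBP6, IGFBP3, IGFBP4, IGFBP7, IGFBP2, GHR and IGFBP1, in which only IGFBP3 and IGFBP4 overlapped among these 8. By the means, IGFBP6 was in the fifth place in controls and in the second in shFAM111B cells, with all its shFAM111B libraries above those of IGFBP3.

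IGFBP6, a binding protein with a marked preference for IGF2, had the largest log2 fold change of the 7 tested members. Its gene lies on chr12:53097436-53102345 (plus strand, GRCh38). It was listed at 4.08, 3 and 2.40 TPM in controls and at 16.67, 14.88 and 21.07 TPM in shFAM111B cells. Every shFAM111B library was well above every control, with the largest spread among the shFAM111B libraries, of which the third was the highest. The ratio of group means was 5.55 and the log2 fold change 2.16 ± 0.19 (SE), with an adjusted p of 4.54e-05. Of all tested genes, 99.0% had a lower log2 fold change. It stayed between 1.90 and 2.70 over the 6 scalings and passed the test in all 6.

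IGFBP2, the binding protein that is abundant in fetal serum and in many tumours, lies on chr2:216632828-216664436 (plus strand). Controls held 0.90, 0.81 and 1.26 TPM, and shFAM111B cells held 5.09, 5.25 and 4.39 TPM. The groups were far apart and the control libraries sat around the 1 TPM limit. The ratio of means was 4.96, with a log2 fold change of 1.57 ± 0.14 (SE), an adjusted p of 5.56e-05 and a range of 1.59 to 2.15 over the scalings. IGFBP5, which lies 7668 bp away on the opposite strand and binds to extracellular matrix, was listed at 0.01 TPM in the first shFAM111B library and at 0 in the other 5.

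IGFBP4, which inhibits IGF action and is cut by the pappalysin PAPPA, lies on chr17:40443461-40457731 (plus strand). Its control values were 4.26, 4.59 and 3.56 TPM, and its shFAM111B values were 11.22, 10.0 and 9.09 TPM. The groups were separated by more than the range within either. The ratio of means was 2.44 and the log2 fold change 1.11 ± 0.12 (SE, adjusted p = 0.00016), with 1.03 to 1.65 over the scalings.

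IGFBP7 binds IGFs weakly and is counted as an IGFBP-related protein. It lies on chr4:57030773-57110385 (minus strand). Levels were 3.12, 3.05 and 3.76 TPM in controls and 8.07, 6.20 and 7.06 TPM in shFAM111B cells. Again the groups did not overlap. The ratio of means was 2.15, and the log2 fold change of 0.91 ± 0.13 (SE, adjusted p = 0.000591) fell short of 2-fold on that scale but stayed at 0.80 to 1.44 over the scalings. IGFBP7 is known from vascular and stromal cells, and the sums of their markers in these cell line cultures are given above.

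IGFBP3, the main carrier of IGF in serum, was the binding protein with the highest level in controls and lies on chr7:45912245-45921874 (minus strand). It stood at 9.55, 8.30 and 10.51 TPM in controls and at 10.34, 11.57 and 10.57 TPM in shFAM111B cells. The groups overlapped, since the first shFAM111B library lay below the third control. The log2 fold change was 0.18 ± 0.11 (SE), with a 95% interval of -0.07 to 0.43 and an adjusted p of 0.160. It passed the test in 5 of the 6 scalings, where it was higher by 0.46 to 0.72, and not after rescaling to nuclear protein-coding genes, where it was 0.07. IGFBP1, the binding protein regulated by insulin in liver, lies 18576 bp from it on the opposite strand. It was listed at 0.63, 0.78 and 0.71 TPM in controls and at 0.71, 0.48 and 0.29 TPM in shFAM111B cells. The groups shared a value, and without the filter on low values the log2 fold change was -0.20 with an adjusted p of 0.340.

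IGF2R, on chr6:159969099-160113507 (plus strand), was at 51.16, 50.79 and 49.0 TPM in controls and at 34.55, 41.76 and 41.43 TPM in shFAM111B cells. All shFAM111B libraries lay below the controls, the first of them well below the other two. The log2 fold change of -0.36 ± 0.08 (SE, adjusted p = 0.0064) was at the median of all tested genes, 50.3% of which had a lower value. Its direction was not kept: it was 0.09 with median-of-ratios scaling, 0.05 with upper-quartile scaling, 0.18 after centring each library on its median gene and -0.04 after quantile normalization, none past the test. Once a fitted trend of fold change on transcript length and level was subtracted it was higher, at 0.38 (adjusted p = 0.00484). IGF2R has the longest transcript of the members, 14044 nt, and tested genes of like length and level had a fitted log2 fold change of -0.74.

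GHR, on chr5:42423777-42721878 (plus strand), was at 3.60, 2.29 and 2.35 TPM in controls and at 0.93, 1.19 and 1.10 TPM in shFAM111B cells. The groups did not overlap, and the first control stood above the other two. Control cells held 2.56 times the mean level of shFAM111B cells, a log2 fold change of -0.84 ± 0.17 (SE, adjusted p = 0.00349). It was below 0 in all 6 scalings, at -0.99 to -0.28, but missed the test after centring (-0.30, adjusted p = 0.141) and after subtraction of the length and level trend (-0.28, adjusted p = 0.194). STC1 was listed at 0.03 TPM in the first shFAM111B library and at 0 in the other 5.

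**Figure D1:**
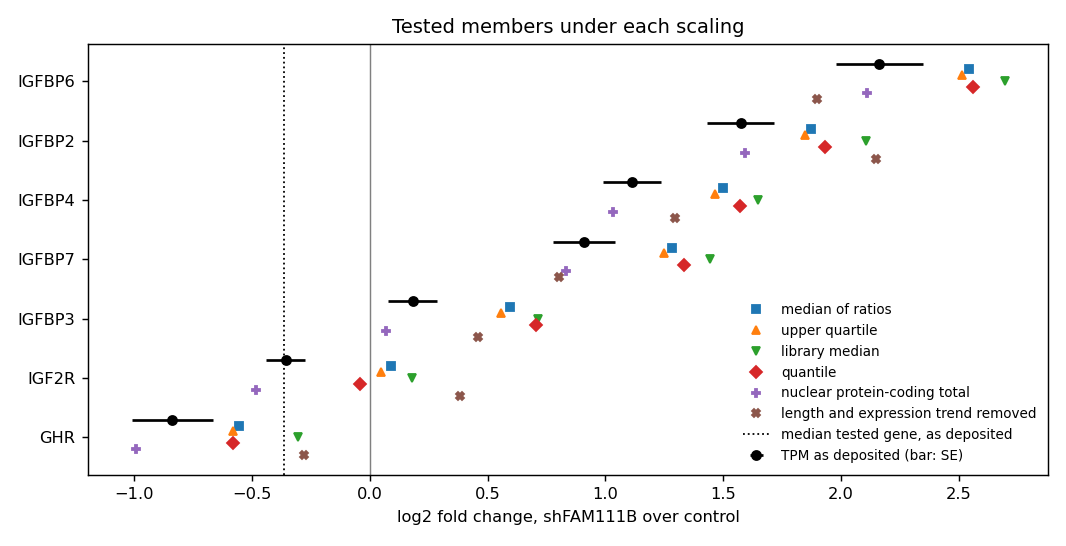
Log2 fold change (shFAM111B over control) of the 7 tested members, with black points and SE bars for the deposited TPM, coloured symbols for the 6 other scalings and a dotted line at the median of all tested genes on TPM, -0.36. IGFBP2, IGFBP4, IGFBP6 and IGFBP7 lie at 0.80 or above throughout, GHR lies below 0 throughout, and the symbols of IGF2R lie on both sides of 0.

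The composition of the libraries moved with the groups as well. Genes of the mitochondrial chromosome summed to 196140 to 201464 TPM in controls and to 73237 to 78883 TPM in shFAM111B cells. Genes of ribosomal, small nuclear, small nucleolar and other small RNA classes, most of which carry no poly(A) tail, summed to 1653 to 4840 TPM in controls and to 46863, 69045 and 5107 TPM in shFAM111B cells. Rescaling to the nuclear protein-coding genes alone left IGFBP2, IGFBP4, IGFBP6, IGFBP7, IGF2R and GHR past the test in the same direction. The third shFAM111B library, the one with few small RNAs, held 4.39 TPM of IGFBP2, 9.09 of IGFBP4, 21.07 of IGFBP6 and 7.06 of IGFBP7, each above every control.

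Taken as a pool, the 7 binding proteins summed to 22.5, 20.5 and 22.2 TPM in controls and to 52.1, 48.4 and 52.5 TPM in shFAM111B cells. The shFAM111B pool was 2.34 times the control pool by the means (51.0 ± 2.26 against 21.8 ± 1.08 TPM, SD, n = 3), with an exact two-sided permutation p of 0.1, the smallest that 3 libraries against 3 can give. Its make-up differed too, and a share within a library does not depend on a single scaling factor for the library, though quantile normalization and the subtraction of a length and level trend act on each gene differently. IGFBP3 made up 42.4%, 40.4% and 47.3% of the pool in controls and 19.8%, 23.9% and 20.1% in shFAM111B cells. IGFBP6 made up 18.1%, 14.6% and 10.8% in controls and 32.0%, 30.8% and 40.2% in shFAM111B cells. Both shares separated the groups without overlap (exact permutation p = 0.1 each), and the largest share passed from IGFBP3 to IGFBP6. The share of IGFBP2 was 4.54% ± 0.986 in controls and 9.66% ± 1.25 in shFAM111B cells, and that of IGFBP1 was 3.26% ± 0.505 and 0.969% ± 0.405 (SD, n = 3, exact permutation p = 0.1 each). IGFBP4 (19.1% and 19.8%, exact permutation p = 0.8) and IGFBP7 (15.2% and 13.9%, exact permutation p = 0.4) held similar mean shares in both groups with overlapping libraries. IGFBP5 added at most 0.0192%.

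**Figure D2:**
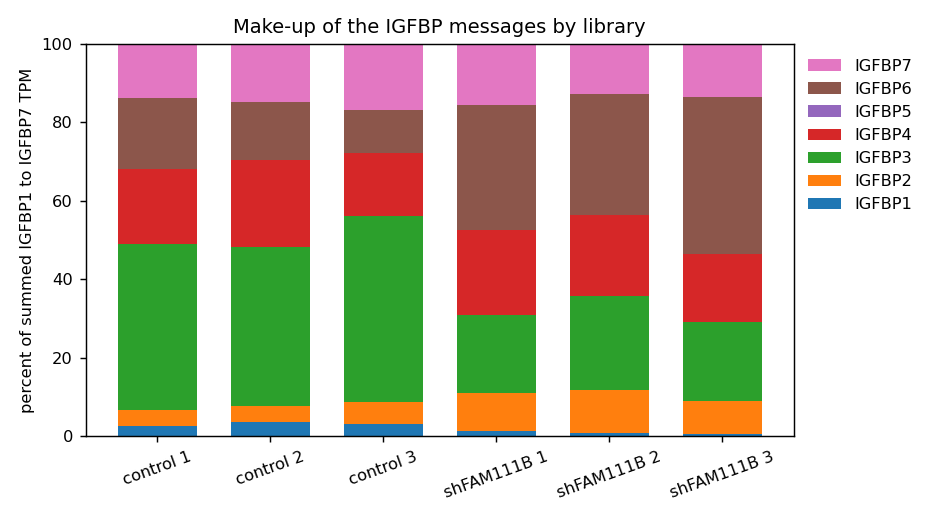
Stacked bars of the percent of the summed IGFBP1 to IGFBP7 TPM held by each binding protein, 1 bar for each of the 6 libraries. IGFBP3 (green) holds 40.4 to 47.3% in controls and 19.8 to 23.9% in shFAM111B cells, and IGFBP6 (brown) goes from 10.8 to 18.1% up to 30.8 to 40.2%.

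Of the ligands and receptors that these proteins act on, IGF2, IGF1R and INSR were tested, and all 3 were lower on the TPM scale, though INSR turned to 0.49 once the fitted length and level trend was subtracted. Of all tested genes 50.9% were lower and 21.1% higher, with a median log2 fold change of -0.36. IGF2, the growth factor that hepatoma cells often make, was listed at 243.78, 230.02 and 227.02 TPM in controls and at 35.91, 37.51 and 34.87 TPM in shFAM111B cells. No overlap was seen and the spread within each group was small beside the difference, a log2 fold change of -2.66 ± 0.05 (SE, adjusted p = 1.08e-06). The readthrough gene INS-IGF2 shares exons with IGF2, so the split of reads between them is uncertain. INS-IGF2 was listed at 661 ± 8.35 TPM in controls and at 352 ± 10.1 TPM in shFAM111B cells (SD, n = 3). Summed, both entries were at 898, 900.4 and 887 TPM in controls and at 386, 381 and 398 TPM in shFAM111B cells. Controls thus held 2.30 times the summed level (exact permutation p = 0.1), and the portion listed under IGF2 was 26.1% in controls and 9.30% in shFAM111B cells.

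IGF1R, the signalling receptor, was at 6.27, 7.90 and 6.76 TPM in controls and at 1.55, 1.90 and 1.53 TPM in shFAM111B cells. Every shFAM111B library was far below every control, with a log2 fold change of -1.58 ± 0.13 (SE, adjusted p = 3.59e-05) and a range of -1.76 to -0.67 over the scalings. INSR, the insulin receptor, was at 12.58, 11.73 and 13.07 TPM in controls and at 7.43, 8.02 and 9.15 TPM in shFAM111B cells. Its groups did not overlap (log2 fold change -0.55 ± 0.10 SE, adjusted p = 0.00191), but it stayed past the test in that direction in only 1 of the 6 scalings. IGF1 reached 0.28 TPM in the first control and at most 0.06 TPM elsewhere, and INS and INSRR were listed at 0 in all libraries.

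Ratios within a library, chosen after the values were seen, set ligand beside binding protein. The summed IGF2 and INS-IGF2 level was 39.8, 43.9 and 40.0 times the summed IGFBP level in controls and 7.40, 7.88 and 7.59 times in shFAM111B cells. Controls were thus 5.41 times shFAM111B cells in this ratio. Both parts of the ratio already separated the groups without overlap and in opposite directions. Its exact permutation p of 0.1 was therefore set beforehand and adds nothing to theirs. Relative to IGF2R, the same sum was 17.8 ± 0.283 in controls and 9.97 ± 1.06 in shFAM111B cells (SD, n = 3, exact permutation p = 0.1). IGF2R relative to M6PR, the cation-dependent mannose 6-phosphate receptor, was 0.547, 0.597 and 0.516 in controls and 0.396, 0.515 and 0.402 in shFAM111B cells. The second shFAM111B library came next to the lowest control there, with exact permutation p = 0.1.

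The partners and proteases of the binding proteins went in both directions. Of 19 genes on this list 7 were tested, with 3 higher, 3 lower and 1 not past the test, and the median log2 fold change was -0.05 against -0.36 over all tested genes. The shares of all tested genes were 21.1% higher and 50.9% lower. The 3 lower genes were ADAM9, ADAM10 and ADAM17, membrane metalloproteases that shed cell-surface proteins. ADAM10 went from 89.2 ± 9.52 to 10.1 ± 0.141 TPM (log2 fold change -3.02), ADAM9 from 114 ± 4.29 to 20.1 ± 0.483 TPM (-2.44) and ADAM17 from 14.2 ± 0.288 to 1.61 ± 0.284 TPM (-2.55), each past the test in that direction in all 6 scalings. The 3 higher genes were the lysosomal protease CTSD (347 to 435 TPM, log2 fold change 0.32), plasminogen PLG (39.0 to 50.3 TPM, 0.35, adjusted p = 0.0147) and the plasminogen activator PLAU (3.19 to 9.64 TPM, 1.33). ADAM17 and PLAU were named after their values had been seen, and CTSD missed the test in 1 scaling. PLG missed the test when the third control or the first shFAM111B library was left out (log2 fold change 0.32 and 0.29). STC2, the other stanniocalcin, was at 6.89, 7.78 and 6.63 TPM in controls and at 6.66, 6.41 and 7.45 TPM in shFAM111B cells, with overlapping groups. Its log2 fold change was -0.05 (adjusted p = 0.704) on TPM, and it was higher past the test in 5 of the 6 scalings, at 0.32 to 0.82. The pappalysins PAPPA and PAPPA2 and the acid-labile subunit IGFALS, which completes the serum complex with IGFBP3 or IGFBP5, stayed under 1 TPM in all libraries.

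In the growth hormone receptor pathway, 14 of 15 listed genes were tested, with 2 higher, 11 lower and 1 not past the test, and a median log2 fold change of -0.98, where 21.1% of all tested genes were higher and 50.9% lower with a median of -0.36. Over the 6 scalings 7 to 11 of these genes were lower and 2 or 3 higher, with 7 lower and a median of -0.34 once the length and level trend was subtracted. JAK2, the kinase bound to GHR, was at 2.56 ± 0.273 TPM in controls and 0.707 ± 0.0551 TPM in shFAM111B cells (log2 fold change -1.06), and it reached the test only through its control libraries. The transcription factors that it activates, STAT5A (7.73 to 2.41 TPM, -1.36) and STAT5B (14.3 to 4.24 TPM, -1.56), and their feedback target SOCS2 (9.70 to 3.84 TPM, -1.16), were lower as well. CISH, the listed gene that was not tested, was at 1.03 ± 0.152 and 0.897 ± 0.0839 TPM (SD, n = 3), with overlapping groups. The largest change was in the phosphatase PTPN11, from 66.2 ± 3.07 to 11.7 ± 0.286 TPM (-2.40). STAT3 (27.6 to 14.8 TPM, -0.86) and the phosphatase PTPN1 (28.9 to 13.2 TPM, -1.08) were lower, STAT3 in 5 and PTPN1 in all 6 scalings past the test. The adaptor SH2B1 did not pass the test (0.34, adjusted p = 0.172) and was higher past it in 5 of the 6 scalings. JAK2, STAT5A, STAT5B, SOCS2 and PTPN11 passed the test in the same direction in all 6 scalings, as did the higher genes SOCS1 (log2 fold change 1.01) and PTPN6 (0.73), inhibitors of cytokine signalling. JAK2, STAT5A, STAT5B, CISH, SOCS1, SOCS2 and PTPN6 were named after their values had been seen.

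Among the 21 genes of mannose 6-phosphate sorting, in which IGF2R works, 16 were lower, 1 was higher and 4 did not pass the test, with a median log2 fold change of -0.60. Over all tested genes 50.9% were lower and 21.1% higher, with a median of -0.36. The counts moved with the scaling, to 6 higher and 10 lower with median-of-ratios and to 8 higher and 7 lower with median centring (median -0.06), and over all tested genes the share of higher calls moved from 29.4% to 50.4% and 58.7%. M6PR was at 91.2 ± 5.30 and 90.4 ± 11.3 TPM (SD, n = 3), with a log2 fold change of -0.02 (adjusted p = 0.880) that was above 0 in 5 of the 6 scalings. The adaptor subunits AP1G1 (40.3 to 10.7 TPM, -1.82) and AP1M1 (104 to 61.9 TPM, -0.74) and the retromer-associated sorting nexin SNX5 (241 to 162 TPM, -0.57) were lower. The retromer subunit VPS29 (160 to 131 TPM, -0.29) was lower on TPM and above 0 in 3 of the 6 scalings. AP1G1 passed the test in that direction in all 6 scalings, and AP1M1 and SNX5 in 5. GNPTG, a subunit of the enzyme that adds the mannose 6-phosphate tag, was the 1 higher gene, at 25.8 and 34.7 TPM (0.42), and was named after its values had been seen.

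Downstream of the receptors, 23 of 25 insulin and IGF signal transduction genes were tested, 16 lower and 0 higher by limma (16 and 0 also at an unadjusted p under 0.05). Their median log2 fold change was -0.78, against -0.36 over all tested genes. The docking proteins IRS1 (13.7 to 5.91 TPM, log2 fold change -1.10) and IRS2 (4.94 to 2.01 TPM, -0.98), the adaptors SHC1 (-0.80) and GRB2 (-0.67), and the transcription factor FOXO1 (6.45 to 1.14 TPM, -1.80) were lower. IRS1, IRS2 and FOXO1 were named after their values had been seen, and IRS1 and IRS2 missed the test once the fitted length and level trend was subtracted. RHEB, the GTPase that activates mTORC1 (133 and 138 TPM, log2 fold change 0.05, adjusted p = 0.538), and the kinase GSK3A (39.2 and 41.4 TPM, -0.02, adjusted p = 0.964) did not pass the test, and both changed sign with the scaling. GSK3A was at 43.2, 36.14 and 38.38 TPM in controls and at 33.02, 27.25 and 64.04 TPM in shFAM111B cells. With 1 library left out, its log2 fold change ran from -0.37 to 0.23 and passed the test in at least 1 fit. PDPK1, the kinase that activates AKT, had the largest change (16.8 to 2.35 TPM, -2.43), but it has a near copy, PDPK2P, and reads may have been split between them. PDPK2P was lower as well, at 3.69 ± 0.326 TPM in controls and 0.733 ± 0.303 TPM in shFAM111B cells (SD, n = 3). Its log2 fold change was -1.45 (adjusted p = 0.000171), and it reached the test only with its control libraries. The part of such a split was not tested. Over the 6 scalings 0 to 6 genes of this insulin and IGF list were higher and 7 to 17 lower. With the fitted length and level trend subtracted, the list held 6 higher and 7 lower genes with a median of 0.06. Over all 8 pathway lists, 85 of 115 genes were tested, 9 higher and 60 lower with a median of -0.74, where 21.1% of all tested genes were higher and 50.9% lower. With that trend subtracted 22 were higher and 38 lower with a median of -0.14, beside 4437 higher and 4696 lower of all 14263 genes tested there.

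**Figure D3:**
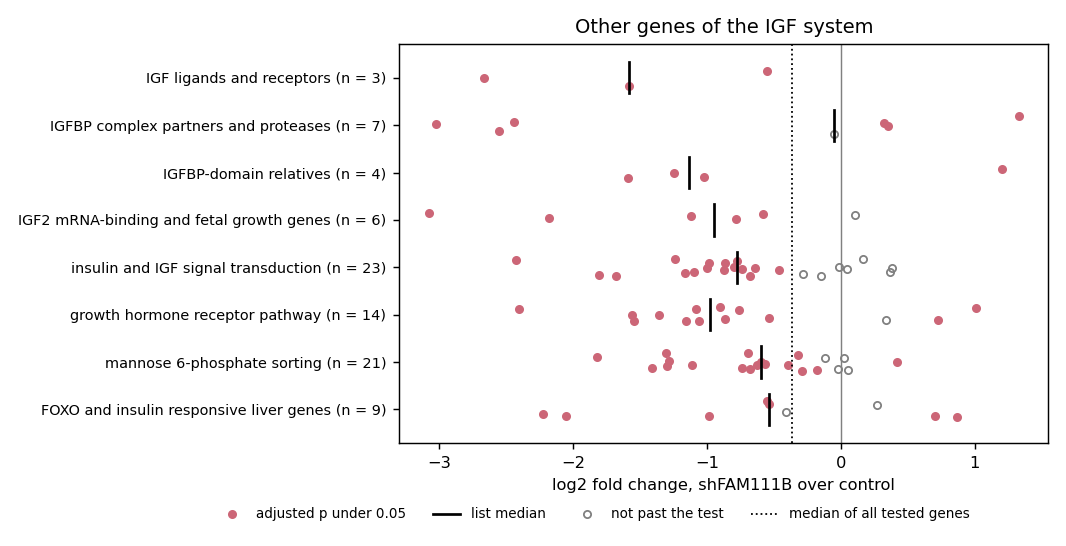
Log2 fold change (shFAM111B over control) of every tested gene of the 8 pathway lists, 1 point per gene, filled where the adjusted p is under 0.05, with a short line at the median of each list and a dotted line at the median of all tested genes, -0.36. In 7 of the 8 lists the median lies below that of all tested genes, and in the list of partners and proteases it lies near 0.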

How the data were processed

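RNA sequencing libraries of Huh7 control and shFAM111B cells were analysed from the deposited TPM, which the authors made from poly(A)-selected libraries. The submitters' processing notes name RSEM, DESeq2 and hg38, with no role or version. The authors' mean, fold change and p-value columns hold their own group comparison and were not used. TPM keep no depth, so no counting interval is given and the number of libraries limits the precision. From these values, log2(TPM + 1) was compared in limma 3.58.1 (R 4.3.3; lmFit and eBayes with trend, no covariates) for genes reaching 1 TPM in 3 or more libraries, with Benjamini-Hochberg adjustment and a threshold of 0.05. Pools and shares were compared by exact permutation (scipy 1.17.1). The scripts were tested on simulated data. Positions and lengths (longest transcript) came from GENCODE v29 on GRCh38, and promoter windows from RefSeq. A loess trend of fold change on length and level (span 0.75) was subtracted for the 14263 tested genes with a length. Alternatives were no filter, a pseudocount of 0.1, 6 scalings, a replicate block and leaving out each library. The members and lists were chosen with earlier results of these data known. Named genes were the members, FAM111B, all ligands and receptors, IGFALS, PAPPA, PAPPA2 and STC2, and from each other list the 4 detected genes with the highest mean TPM and the tested gene with the largest change past the test. RGS5 had 2 entries and was left out of its list.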

Additional observations from a re-analysis of the deposited data

How the results depend on the processing

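IGFBP2, IGFBP4, IGFBP6, IGFBP7 and FAM111B kept direction and call in every alternative run, except that IGFBP7 missed the 2-fold rule. IGFBP3 passed the test with median-of-ratios scaling (0.60), upper-quartile scaling (0.56), median centring (0.72), quantile normalization (0.71) and the length and expression trend removed (0.46), at adjusted p of 0.000693 to 0.00692. IGF2R turned to 0.090, 0.050, 0.18 and 0.38 with median-of-ratios, upper-quartile, median centring and trend removal, and was -0.043 with quantile normalization. GHR missed the test with median centring (-0.30) and trend removal (-0.28). Lower members numbered 1 with median-of-ratios, upper-quartile and quantile, and 0 with centring, trend removal and the 2-fold rule. Among pathway genes 21, 20, 25, 17 and 22 were higher with median-of-ratios, upper-quartile, centring, quantile and trend removal, and 38 were lower with the last. The trend removal also turned APOC3 (-0.24), HMGA2 (0.22) and INSR (0.49), and VPS29 turned to 0.16, 0.12 and 0.25 with median-of-ratios, upper-quartile and centring. The cause was not tested. The IGFBP pool difference of 29.2 TPM became 40.9, 40.0 and 32.8 with median-of-ratios, upper-quartile and nuclear protein-coding scaling, and 14.9 without IGFBP6. The IGFBP3 share fell by 26.5 points among IGFBP1 to IGFBP6 alone, where it fell by 22.1 in the whole pool. Over all tested genes, higher and lower calls were 3044 and 7326 on TPM, 5151 and 5071 with median-of-ratios, 5995 and 4225 with centring.

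Leaving out 1 library at a time changed no member's call (IGFBP6 2.03 to 2.32, IGFBP2 1.51 to 1.67, IGFBP3 0.10 to 0.25, IGF2R -0.40 to -0.27, GHR -0.92 to -0.68). Same-numbered libraries share only a number: their deviations correlated at 0.0349 to 0.0908, and the replicate block left 10220 genes past the test against 10370, with every member's call kept (IGF2R adjusted p = 0.014, GHR 0.013, IGFBP3 0.23). TPM hold no depth, so the reads behind the values of IGFBP1, IGFBP5 and STC1 are unknown.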

Other observations

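Genes that carry an IGFBP-type domain without being IGF binding proteins were measured apart from the members. Of 10 listed, 4 were tested, 1 higher and 3 lower, with a median log2 fold change of -1.13. Over all tested genes 21.1% were higher and 50.9% lower, with a median of -0.36. CCN2, a matricellular protein, was at 287 ± 0.203 TPM in controls and 121 ± 7.40 TPM in shFAM111B cells (SD, n = 3; log2 fold change -1.24), its relative CCN1 at 144 ± 9.17 and 70.4 ± 3.64 TPM (-1.02), and CRIM1, a membrane protein that binds bone morphogenetic proteins, at 27.6 ± 2.96 and 8.56 ± 1.58 TPM (-1.59). KAZALD1 was higher, at 5.43 ± 0.290 and 14.0 ± 2.72 TPM (1.20). All 4 passed limma's moderated test in these directions in all 6 scalings.

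The IGF2 mRNA-binding and fetal growth list had 6 tested genes, 5 lower and 0 higher by limma (5 and 0 also at an unadjusted p under 0.05), with a median of -0.95. The shares of all tested genes were 50.9% lower and 21.1% higher, with a median of -0.36. IGF2BP3 was at 26.85, 25.26 and 23.33 TPM in controls and at 2.41, 3.54 and 0.91 TPM in shFAM111B cells (log2 fold change -3.08), which did not overlap and in which the test was reached only through the controls, although the shFAM111B libraries differed several-fold among themselves. IGF2BP1 (45.6 to 20.4 TPM, -1.12), IGF2BP2 (33.3 to 19 TPM, -0.78) and LIN28B (90.0 to 19 TPM, -2.18), RNA-binding proteins of fetal and tumour cells, were lower too, and HMGA2 (46.9 to 31.0 TPM, -0.58) turned to 0.22 once the fitted length and level trend was subtracted. Of 9 tested FOXO and insulin responsive liver genes, 2 were higher (APOC3, 0.70, and KLF15, 0.87, the latter named after its values had been seen) and 5 lower, among them TRIB1 (36.1 to 6.97 TPM, -2.22) and TXNIP (15.7 to 3 TPM, -2.05). APOC3 turned to -0.24 with the same trend subtracted. The counts of this last list lay near the shares of all tested genes, and its median was -0.53.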
